A study of Homo sapiens with 4 samples.

Results

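The small-subunit processome is the large nucleolar assembly that folds and cleaves the precursor of the small-subunit ribosomal RNA, and WDR43 is a known subunit of it, in the UTP-A complex. The genes described here are 42 genes of this assembly and of partners of WDR43, out of 29286 genes listed in each library. They were taken as a fixed list of symbols, chosen with earlier results of these data known, and matched by Ensembl identifier. All 42 had values in every library and all 42 passed the filter on low values.

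RNA had been sequenced from HCT116, a line of human colorectal carcinoma cells in wide use. The shWDR43 group held 2 libraries from cells infected with lentivirus for a short hairpin against WDR43, a single knockdown hairpin as far as the labels say. The shNC group held 2 libraries from cells infected with lentivirus for a control hairpin, called shNC2 in the sample titles. Both groups had 48 h of infection and then 3 days of puromycin selection, so the control cells share the infection and the drug. The labels do not say that the replicates were separate cultures, so the spread that the p-values rest on may be technical.

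In the processome, UTP-A binds the nascent precursor first, and UTP-B and the U3 box C/D particle then join, with U3 RNA pairing to the precursor to guide its folding and cleavage. Enzymes and late factors release U3 and let the young small subunit mature. The pathway is active in proliferating cells, and many of its genes are known targets of MYC, which the series title places upstream of WDR43.

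The values were read as FPKM (fragments per kilobase of transcript, scaled to the mapped total), and they summed to 402393 to 411816 in the shWDR43 libraries and to 393582 to 413758 in the shNC libraries. Read totals were not used here, and how many reads stand behind a value is unknown. The level of WDR43 was not analysed here, so the knockdown was not checked. Of 9 colorectal epithelial markers with values, 6 reached 1 FPKM in some library; EPCAM was at 159 to 160 FPKM in shWDR43 and at 155 to 181 FPKM in shNC, while the intestinal markers VIL1, LGR5 and GPA33 stayed below 0.1 FPKM throughout. The 9 epithelial markers summed to 2443 to 2501 FPKM in shWDR43 and to 1745 to 2067 FPKM in shNC, most of it from keratins. The keratin KRT8 was at 798 to 807 FPKM in shWDR43 and 531 to 603 FPKM in shNC. Log2 differences (shWDR43 minus shNC) were 0.50 for KRT8, 0.44 for KRT18 and 0.36 for KRT19. Those of the other markers that reached 1 FPKM were -0.07 for EPCAM, -0.11 for CDH1 and -0.03 for CDX2. The part of the keratins in the results was not tested. The summed level of 7 markers of other cell types was 6.20 to 7.45 FPKM in shWDR43 and 7.42 to 8.18 FPKM in shNC, nearly all of it COL1A1. Transcripts of the mitochondrial genome (symbols in MT-) held 23.9% to 24.6% of the FPKM sum in shWDR43 and 25.5% to 26.8% in shNC, and what part this has in the results was not tested.

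The promoter windows of 4 members are shown because these were the pairs with the smallest p-values in each direction, higher (RRP9 and UTP4) and lower (KRR1 and NAT10) in shWDR43. Each window runs from 250 bases before to 50 bases after the RefSeq start in GRCh38.p14, printed 5′ to 3′ on the gene's own strand. Capitals mark the E-box CACGTG, which MYC and its relatives are known to bind, and the ETS site CCGGAAG on either strand (CTTCCGG on the other). The E-box and the ETS site do not overlap in these windows.
RRP9, chr3:51941855-51942154, minus strand: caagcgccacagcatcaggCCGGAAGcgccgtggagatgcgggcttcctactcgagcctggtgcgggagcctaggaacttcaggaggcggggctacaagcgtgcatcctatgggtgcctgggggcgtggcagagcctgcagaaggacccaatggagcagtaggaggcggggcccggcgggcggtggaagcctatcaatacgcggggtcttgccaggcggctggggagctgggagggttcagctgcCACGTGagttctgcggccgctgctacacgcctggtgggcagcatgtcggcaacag
UTP4, chr16:69132399-69132698, plus strand: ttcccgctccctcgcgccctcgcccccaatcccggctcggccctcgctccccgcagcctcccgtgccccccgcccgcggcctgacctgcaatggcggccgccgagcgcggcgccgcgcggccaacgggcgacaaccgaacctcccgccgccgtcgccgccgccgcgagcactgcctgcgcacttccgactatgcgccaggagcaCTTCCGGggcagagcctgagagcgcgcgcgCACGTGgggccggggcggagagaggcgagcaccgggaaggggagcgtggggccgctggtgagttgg
KRR1, chr12:75511560-75511859, minus strand: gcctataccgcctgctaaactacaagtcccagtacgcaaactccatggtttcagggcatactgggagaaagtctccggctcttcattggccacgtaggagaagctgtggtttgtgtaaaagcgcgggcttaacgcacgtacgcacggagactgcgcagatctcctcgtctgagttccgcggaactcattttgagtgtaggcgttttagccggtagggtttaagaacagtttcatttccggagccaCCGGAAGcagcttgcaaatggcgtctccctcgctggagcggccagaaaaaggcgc
NAT10, chr11:34105379-34105678, plus strand: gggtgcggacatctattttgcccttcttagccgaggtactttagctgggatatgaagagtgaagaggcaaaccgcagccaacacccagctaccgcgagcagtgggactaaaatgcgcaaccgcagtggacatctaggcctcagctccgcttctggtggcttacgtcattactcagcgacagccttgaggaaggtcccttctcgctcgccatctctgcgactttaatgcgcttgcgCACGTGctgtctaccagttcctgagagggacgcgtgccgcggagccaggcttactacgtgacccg
RRP9 and UTP4 each hold both motifs, with the E-box starting 5 bases and 16 bases before the start. NAT10 holds an E-box starting 15 bases before its start, and KRR1 an ETS site starting 5 bases before its start. The motifs thus occur in windows of genes from both directions.

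RefSeq windows were found for 36 of the 42 genes, and no window was used for the other 6. An E-box stood in 16 of 36 windows, or 44.4%, against 10.0% of 9852 windows of tested genes and 7.3% of all 27305 windows. In 14 of these 16 genes an E-box began within 50 bases of the start. The ETS site stood in 14 of 36, or 38.9%, against 19.8% of the windows of tested genes. The GC box GGGCGG was in 77.8%, against 70.9%, and the CCAAT box CCAAT in 44.4%, against 36.7%. The TCTCGCGA element was in 3 windows, or 8.3%, against 2.4% of the windows of tested genes, and the NRF1 core in 2, or 5.6%, against 2.3%. The YY1 site AAGATGGCG was in 2, or 5.6%, against 4.1%, and the TATA box TATAAA in 2, or 5.6%, against 5.5%. Both strands were searched, and the motifs were not required to lie apart from each other. Median GC content was 62.0% in the members' windows and 58.0% in all windows, and it was not taken over the windows of tested genes. The GC box stood in 43.8% of all windows, against 70.9% of the windows of tested genes. Members with an E-box had a median log2 difference (shWDR43 minus shNC) of 0.07, with 10 of 16 above 0. Those with a window but no E-box had 0.14, with 15 of 20 above 0. Over all tested genes the median was 0.05, with 7720 of 13303 above 0. The differences of the E-box genes ran in both directions, from -0.34 for UTP14A to 0.46 for RRP9.

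**Figure D1:**
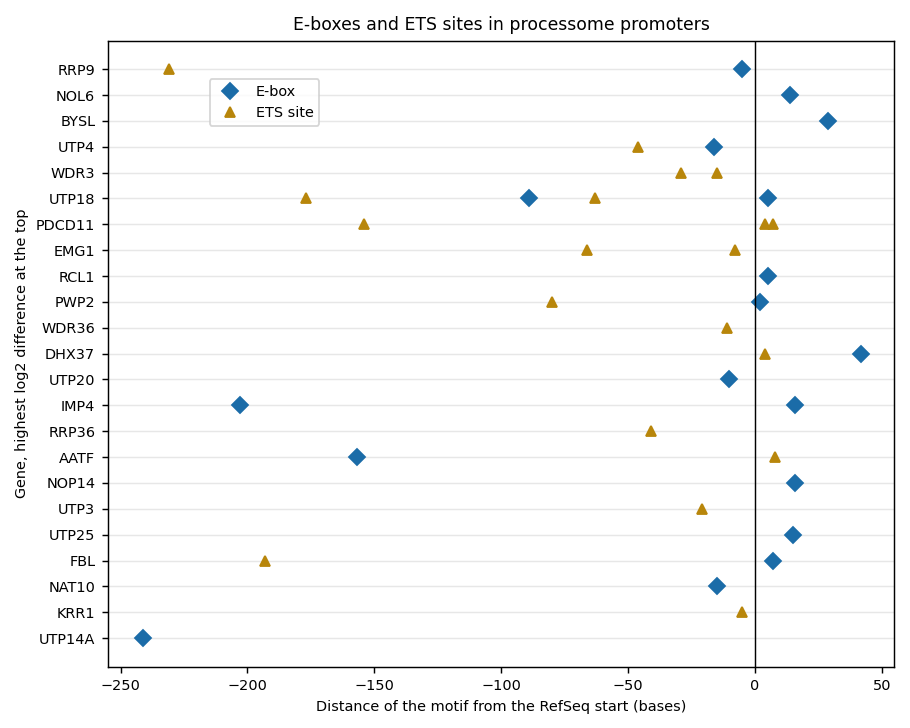
Distance in bases of each E-box (diamonds) and ETS site (triangles) from the RefSeq start, for the members whose windows hold either motif, ordered by log2 difference (shWDR43 minus shNC) with the highest at the top. Most E-boxes sit within 50 bases of the start, in genes at both ends of the order.

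Transcripts of the processome were close to their control levels in shWDR43 cells. RRP9, the U3-specific protein of the box C/D particle, was the only member to pass the test, rising 1.41-fold. Of the 42 members 1 rose, against 4.79% of 13303 tested genes that rose, and 0 fell, against 1.47%; 6.26% of tested genes changed in either direction. The test was limma on log2(FPKM + 1), two-sided, with Benjamini-Hochberg adjustment over all 13303 genes and a threshold of 0.05. At an unadjusted p below 0.05 there were 17 members, against 26.4% of tested genes. The median log2 difference was 0.09 over the members and 0.05 over all tested genes, and the median size of the difference was 0.18 against 0.16.

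No member reached a 2-fold difference within its error. The 95% interval of the log2(FPKM + 1) difference lay between -1 and 1 for all 42 members, as it did for 97.8% of tested genes. The lowest bound was -0.59, for UTP14A, and the highest 0.76, for IMP3. This scale understates the change of genes at low levels, such as PWP2 or UTP20. A missed threshold does not show equal levels, and an exact permutation test with 2 libraries a group has p = 0.333 as its lowest value.

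**Figure D2:**
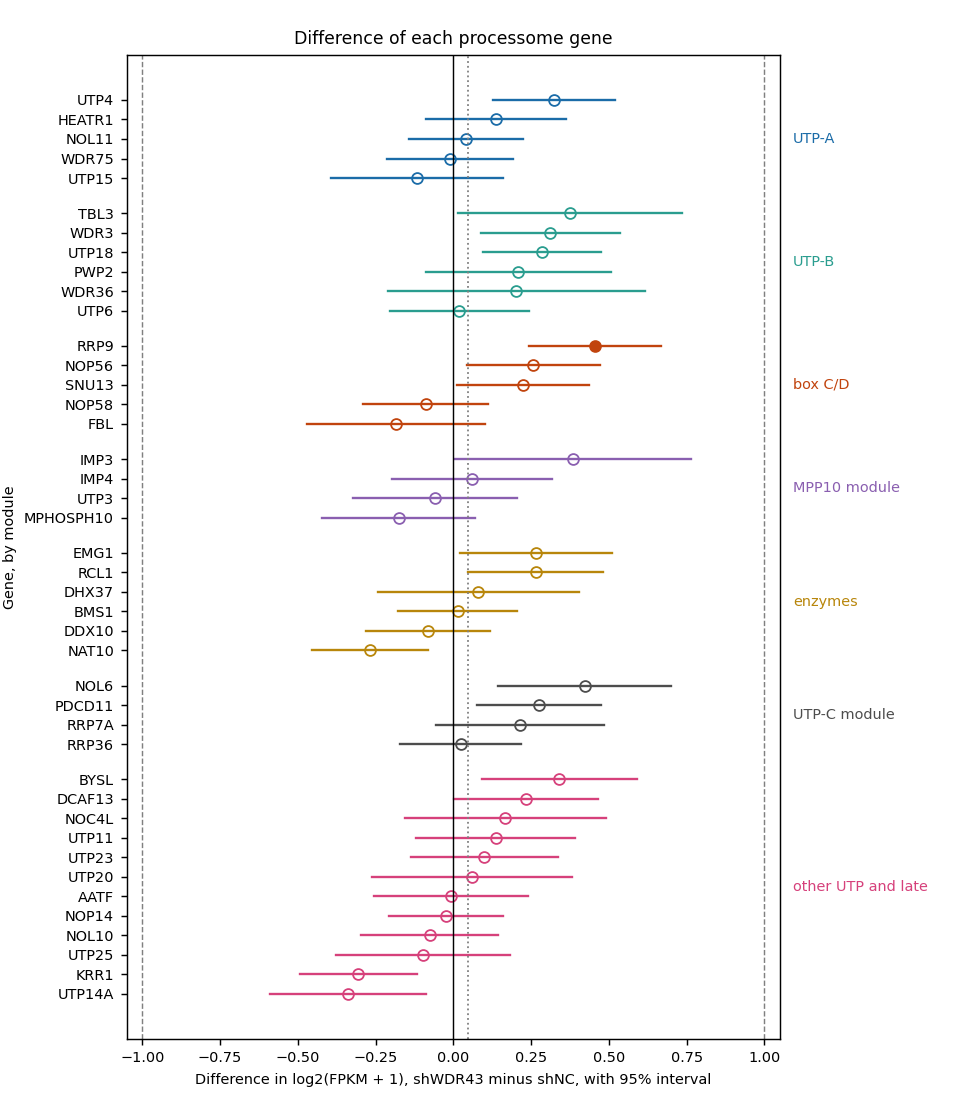
Difference in log2(FPKM + 1), shWDR43 minus shNC, of each of the 42 genes by module, with its 95% interval as a line; the filled point passed the adjusted test and the open points did not. The dotted line is the median of all tested genes at 0.05 and dashed lines mark a 2-fold change. All intervals stay between the dashed lines, and RRP9 is the filled point at 0.46.

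In 17 members both shWDR43 libraries lay above both shNC libraries, against 35.8% of tested genes, and in 5 both lay below, against 21.5%. Together these are 22 of the 42 members, against 57.3% of tested genes, and in the other 20 the groups overlapped. Set against single control libraries, shWDR43 replicate 1 was higher in 30 of 42 members against shNC replicate 1 and in 25 against shNC replicate 2. For shWDR43 replicate 2 these counts were 28 and 26. The 4 median differences ran from 0.07 to 0.13, against 0.04 to 0.06 over all tested genes. These 4 comparisons share libraries, so they are not separate from each other. Such counts were not taken over all tested genes. Of the log2 differences between groups, 28 of 42 were above 0 in the members, against 7720 of 13303 over all tested genes. The summed level of the 42 genes was 891 and 874 FPKM in the shWDR43 libraries and 818 and 901 FPKM in the shNC libraries, so the sums overlapped. In bulk RNA, fewer cells making a transcript and less of it per cell cannot be told apart.

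**Figure D3:**
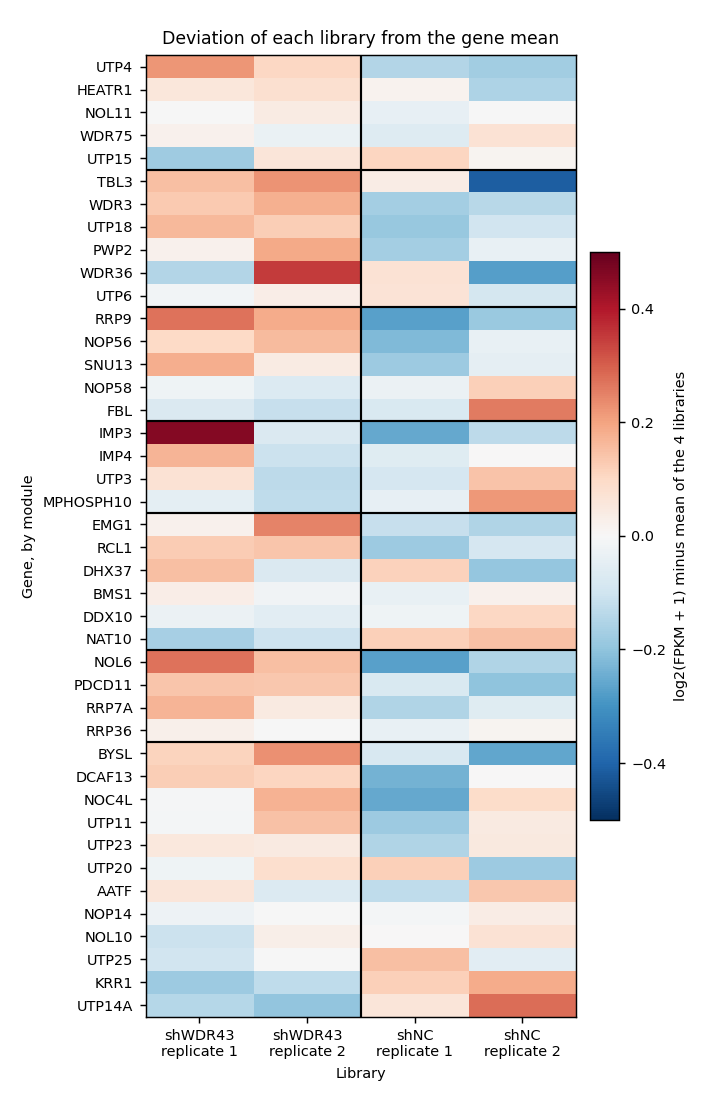
Deviation of each library from the mean of the 4 libraries in log2(FPKM + 1), for the 42 genes by module, with the shWDR43 libraries in the left columns and the shNC libraries in the right columns. TBL3 and FBL differ between the shNC columns, IMP3 and WDR36 differ between the shWDR43 columns, and RRP9, UTP18 and KRR1 differ between the groups.

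UTP-A is the complex to which WDR43 itself belongs, and 0 of its 5 other members passed the test (median log2 difference 0.04). Of all tested genes 6.26% passed, so a count of 0 in a module of 4 to 12 genes cannot set it apart from them. UTP4, a WD-repeat subunit, had 29.1 and 26.7 FPKM in shWDR43, against 22.3 and 21.9 FPKM in shNC. Both shWDR43 values lay above both controls, and the ratio of means was 1.26, but the log2 difference of 0.32 ± 0.08 (SE) missed the threshold (limma adjusted p = 0.0641, 95% interval 0.13 to 0.52). HEATR1, a long HEAT-repeat subunit, had 12.2 and 12.4 FPKM in shWDR43 and 11.8 and 10.4 FPKM in shNC, groups that did not overlap but lay close (log2 difference 0.14, interval -0.09 to 0.36). NOL11, a subunit needed for pre-ribosomal RNA transcription and processing in human cells, had 29.5 and 30.4 FPKM in shWDR43, against 28.7 and 29.5 FPKM in shNC, a difference of 0.04 with an interval of -0.14 to 0.22. WDR75, another WD-repeat subunit, had 26.0 and 25.0 FPKM in shWDR43, against 24.5 and 27.0 FPKM in shNC, and its shWDR43 values lay between the controls. UTP15, the WD-repeat subunit at the lowest level of the complex, had 4.17 and 5.10 FPKM in shWDR43 and 5.29 and 4.90 FPKM in shNC, again overlapping (log2 difference -0.12, interval -0.39 to 0.16). In FPKM, which is per length, NOL11, WDR75 and UTP4 stood near 25 to 30 on average, and HEATR1 and UTP15 stood lower.

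UTP-B, a further WD-repeat-rich complex that bridges U3 and the precursor, had 0 of 6 members past the test, while all 6 log2 differences were above 0 with all libraries and the deposited scaling, as were 7720 of 13303 over all tested genes. That of UTP6 was -0.002 under median-ratio scaling, -0.05 under upper-quartile scaling and -0.06 without shNC replicate 2. Without shWDR43 replicate 2, UTP6 was at -0.004 and WDR36 at -0.045. UTP18, whose yeast counterpart brings the exosome to the precursor, had 31.7 and 30.8 FPKM in shWDR43, against 24.6 and 26.3 FPKM in shNC, a difference of 0.29 ± 0.08 (SE; adjusted p = 0.0782). WDR3, a WD-repeat subunit, had 7.06 and 7.32 FPKM in shWDR43, against 5.53 and 5.67 FPKM in shNC, a difference of 0.31 ± 0.10 (adjusted p = 0.0920). In both genes the gap between groups was wider than the gaps within them. TBL3, the counterpart of yeast Utp13, had 4.74 and 5.04 FPKM in shWDR43, against 4.31 and 2.89 FPKM in shNC, and its difference of 0.37 was 0.15 without shNC replicate 2 (adjusted p = 0.361). PWP2, a long WD-repeat protein, had 2.41 and 2.83 FPKM in shWDR43, and 1.99 and 2.27 FPKM in shNC. WDR36, the counterpart of yeast Utp21, had 10.8 and 15.7 FPKM in shWDR43 and 12.8 and 9.82 FPKM in shNC, the widest spread in UTP-B, and the groups overlapped. UTP6, a repeat-containing scaffold protein, had 10.03 and 10.4 FPKM in shWDR43, within its values of 10.7 and 9.49 FPKM in shNC.

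The U3 box C/D particle has 4 shared core proteins and RRP9, which is specific to U3. RRP9 had 13.3 and 12.5 FPKM in shWDR43, against 8.83 and 9.43 FPKM in shNC, groups well apart. It averaged 12.9 ± 0.585 FPKM in shWDR43 and 9.13 ± 0.424 FPKM in shNC (SD, n = 2 each), a log2 difference of 0.46 ± 0.09 (SE; limma adjusted p = 0.0347, interval 0.24 to 0.67). The direction held in every fit, but the adjusted p was 0.131 without the filter on low values. It was 0.0529 and 0.0676 under median-ratio and upper-quartile scaling, and 0.0526 with a replicate block. It was 0.023 with a filter at 5 FPKM, 0.0351 with an offset of 0.1 and 0.0377 with robust settings off. In the fits added after seeing the data it was 0.0247 (protein-coding genes) and 0.0112 (crossed block). The log2 difference was 0.413 and 0.499 without shWDR43 replicate 1 or 2, and 0.413 and 0.498 without shNC replicate 1 or 2. RRP9 lies on chromosome 3 at 51933430 to 51941941, minus strand, in GENCODE release 29 on GRCh38, with 1578 exonic bases.

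Of the 4 core proteins 0 passed the test. NOP56, a scaffold of box C/D particles, had 68.0 and 70.9 FPKM in shWDR43, against 54.3 and 61.8 FPKM in shNC, a difference of 0.26 (adjusted p = 0.128). SNU13, which binds the kink-turn of the RNA and also serves the spliceosome, had 48.1 and 43.6 FPKM in shWDR43, and 37.2 and 41.0 FPKM in shNC. For NOP56 and SNU13 both shWDR43 values lay above both controls. NOP58, the partner of NOP56, had 52.7 and 50.9 FPKM in shWDR43 and 52.4 and 58.1 FPKM in shNC. FBL, the methyltransferase fibrillarin, was at the highest level of the 42 genes, with 135.1 and 131.1 FPKM in shWDR43, and 135 and 170 FPKM in shNC. The second control stood above the other 3 libraries, and the FBL difference of -0.18 was -0.35 without shNC replicate 1 (adjusted p = 0.0169). The U3 RNA genes themselves were not analysed here.

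The MPP10 group, which holds U3 paired to the precursor, had 0 of 4 members past the test and no common direction. IMP3, which promotes U3 pairing, had 19.7 and 13.3 FPKM in shWDR43, against 11.6 and 12.8 FPKM in shNC. Only shWDR43 replicate 1 stood apart, and IMP3 had a difference of 0.38 (adjusted p = 0.185), but 0.65 without shWDR43 replicate 2 (adjusted p = 0.00734) and 0.12 without shWDR43 replicate 1 (adjusted p = 0.828). MPHOSPH10, the group's scaffold, had 18.98 and 17.91 FPKM in shWDR43 and 19.1 and 23.0 FPKM in shNC, just apart from each other (difference -0.18, adjusted p = 0.331; -0.30 and adjusted p = 0.0498 without shNC replicate 1). IMP4, its partner in that step, had 17.2 and 14.0 FPKM in shWDR43, and 14.5 and 15.2 FPKM in shNC. UTP3, the counterpart of yeast Sas10 and placed in this group here, had 18.1 and 15.6 FPKM in shWDR43, and 16.14 and 19.04 FPKM in shNC. Both IMP4 and UTP3 overlapped between groups.

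Of the 6 genes for the GTPase BMS1, helicases and modifying enzymes, 0 passed the test. NAT10, the acetyltransferase that modifies cytidines of the small-subunit RNA, had 22.3 and 23.3 FPKM in shWDR43, against 27.4 and 27.9 FPKM in shNC, a difference of -0.27 ± 0.08 (SE; adjusted p = 0.0870, interval -0.45 to -0.08). RCL1, a cyclase-like protein that works with BMS1, had 9.07 and 9.14 FPKM in shWDR43, against 7.13 and 7.70 FPKM in shNC, a difference of 0.26 (adjusted p = 0.125). NAT10 and RCL1 each had narrow spreads within groups, in opposite directions. EMG1, a methyltransferase of the small-subunit RNA, had 9.91 and 11.8 FPKM in shWDR43, and 8.93 and 8.70 FPKM in shNC. BMS1, a GTPase, had 21.1 and 20.3 FPKM in shWDR43 and 20.02 and 20.9 FPKM in shNC, and its interval ran from -0.18 to 0.21. DDX10, an RNA helicase, had 22.5 and 22.1 FPKM in shWDR43, and 22.6 and 24.8 FPKM in shNC. DHX37, the helicase that releases U3, had 5.58 and 4.63 FPKM in shWDR43, and 5.41 and 4.18 FPKM in shNC. BMS1 and DHX37 overlapped between groups, and DDX10 did not, by a small margin.

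In the UTP-C group, which joins the assembly later and is taken here with PDCD11, 0 of 4 members passed the test. All 4 differences were above 0 with all libraries and the deposited scaling (median 0.24), but that of RRP36 was -0.04 under upper-quartile scaling and -0.003 without shNC replicate 1. NOL6, the counterpart of yeast Utp22, had 3.61 and 3.23 FPKM in shWDR43, against 2.16 and 2.44 FPKM in shNC. Its ratio of means, 1.49, was above that of RRP9, yet with a log2 difference of 0.42 ± 0.12 (SE) it missed the threshold (adjusted p = 0.0757). PDCD11, the counterpart of yeast Rrp5, which serves both subunits, had 25.0 and 24.9 FPKM in shWDR43 and 21.4 and 19.5 FPKM in shNC, a difference of 0.28 (adjusted p = 0.0935). RRP7A, the counterpart of yeast Rrp7, had 3.53 and 3.16 FPKM in shWDR43, against 2.63 and 2.86 FPKM in shNC. In NOL6, PDCD11 and RRP7A the groups did not overlap. RRP36 had 15.5 and 15.2 FPKM in shWDR43 and 14.8 and 15.4 FPKM in shNC, which did.

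The remaining 12 UTP and late factors held 0 genes past the test, with 6 differences above 0 and 6 below. KRR1, a KH-domain protein, had 23.2 and 24.2 FPKM in shWDR43, against 28.8 and 30.3 FPKM in shNC, a difference of -0.31 ± 0.08 (SE; adjusted p = 0.0657). UTP14A, which activates the helicase DHX37, had 7.24 and 6.94 FPKM in shWDR43, against 8.47 and 10.04 FPKM in shNC, a difference of -0.34 (adjusted p = 0.0992). KRR1 and UTP14A were the only late factors with both shWDR43 values below both controls. BYSL, which stays on the young small subunit until the cytoplasm, had 8.48 and 9.30 FPKM in shWDR43, against 7.31 and 6.33 FPKM in shNC, a difference of 0.34 (adjusted p = 0.0961). DCAF13, the counterpart of yeast Sof1, had 27.8 and 27.5 FPKM in shWDR43, against 21.4 and 25.5 FPKM in shNC. BYSL and DCAF13 were the only late factors with both shWDR43 values above both controls.

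The other 8 late factors overlapped between groups, with log2 differences from -0.10 for UTP25 to 0.17 for NOC4L. NOC4L, the partner of NOP14, had 5.64 and 6.51 FPKM in shWDR43 and 4.57 and 6.09 FPKM in shNC. UTP20, a very long scaffold protein, had 2.70 and 2.99 FPKM in shWDR43, within its values of 3.09 and 2.32 FPKM in shNC. NOC4L, UTP20, TBL3, WDR36, DHX37 and FBL had the widest gaps between the shNC libraries, at 0.30 to 0.45 on the log2 scale. AATF, part of a complex with NOL10 and other factors, was the most abundant of these 8 with 55.9 and 51.2 FPKM in shWDR43, and 49.1 and 58.9 FPKM in shNC. NOP14 was among the most even of all members, with 25.8 and 26.2 FPKM in shWDR43 and 26.1 and 26.9 FPKM in shNC. UTP11 and UTP23 stood at 10.3 to 14.9 FPKM in shWDR43 and at 8.83 to 13.8 FPKM in shNC, and NOL10 and UTP25 at 3.17 to 11.5 FPKM in shWDR43 and at 3.29 to 11.9 FPKM in shNC.

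**Figure D4:**
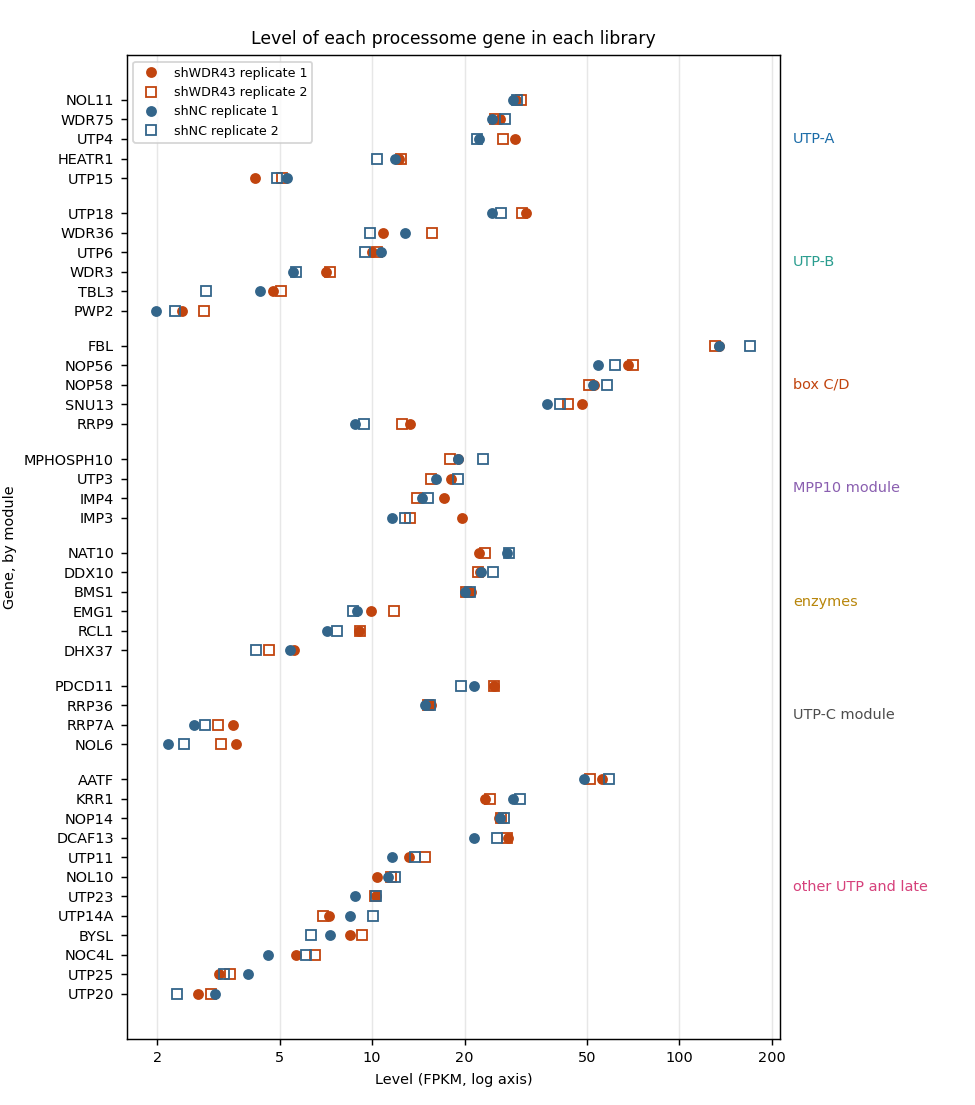
FPKM of the 42 genes in each library on a log axis, by module and ordered by mean level, with shWDR43 in orange and shNC in blue (filled circles replicate 1, open squares replicate 2). Means run from 2.38 FPKM for PWP2 to 143 FPKM for FBL, and the differences between genes are far wider than those between groups.

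Levels spread over a wide range across the assembly, with a median of 13.9 FPKM against 7.41 FPKM for all tested genes. The box C/D core proteins FBL, NOP56, NOP58 and SNU13, which serve many guide particles besides U3, stood at 42.5 to 143 FPKM on average, and RRP9 at 11.0 FPKM. Among the others, AATF was at 53.8 FPKM and no further gene averaged over 30 FPKM. The order of neighbours such as WDR75 and UTP4, or RRP36 and IMP4, is within their spread.

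Which members passed the test depended on the libraries in the fit, and a group left with 1 library is assumed to vary like the other. The replicate pairs did not vary alike. In log2(FPKM + 1) the SD of replicate 1 minus 2 over 13303 genes was 0.177 in shWDR43 and 0.245 in shNC. Each SD rests on 1 pair of libraries, so it cannot show whether the groups themselves differ in spread. Fits that leave out a control library took their spread from the tighter shWDR43 pair alone, so their adjusted p-values can be too low. Fits that leave out an shWDR43 library took theirs from the wider shNC pair alone, so their adjusted p-values can be too high. The fit that leaves out shNC replicate 1 had 5 members up, against 9.17% of tested genes, and 4 down, against 4.06%. The fit that leaves out shNC replicate 2 had 7 up, against 13.5%, and 1 down, against 6.13%. Leaving out shWDR43 replicate 1 left 0 members, when 1.94% of tested genes rose and 1.0% fell. Leaving out shWDR43 replicate 2 left IMP3 alone, when 2.45% rose and 1.01% fell. With a filter at 5 FPKM in place of 1, RRP9 and UTP4 rose and KRR1 fell among the 36 members tested, against 9.34% and 2.9% of tested genes. There were 0 members past the test with no filter (0.0631% of genes), under median-ratio scaling (3.4%) and under upper-quartile scaling (2.79%). RRP9 and UTP4 rose and KRR1 fell in both fits that leave out a control. BYSL, PDCD11 and TBL3 rose and FBL, MPHOSPH10 and UTP14A fell without shNC replicate 1, and NOP56, SNU13, UTP18, NOL6 and DCAF13 rose without shNC replicate 2.

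**Figure D5:**
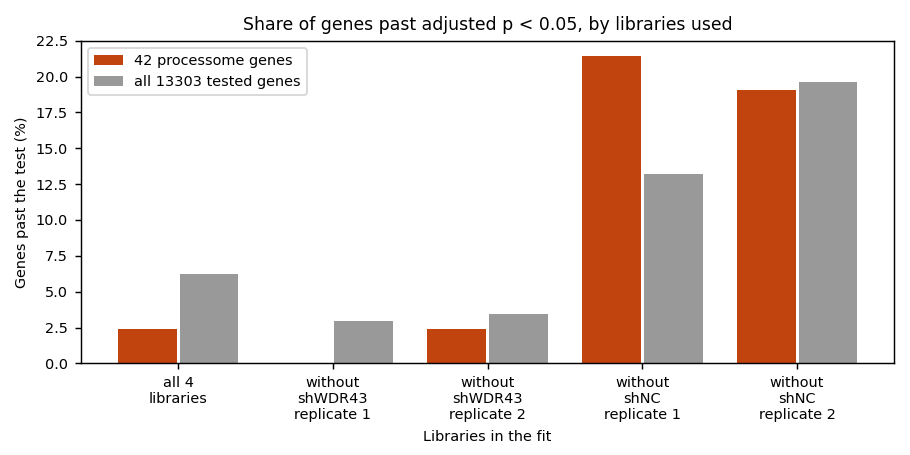
Share of genes past the adjusted test in percent, for the 42 processome genes (orange) and all 13303 tested genes (grey), with all 4 libraries and with each left out in turn. With all libraries the share is 2.38% against 6.26%, and both shares move with the library left out.

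Of 40 tested genes of small-subunit assembly that are not on the list, 1 rose, against 4.79% of all tested genes, and 0 fell, against 1.47%. Of their differences 20 were above 0, against 7720 of 13303 over all tested genes. That gene was NOLC1, a chaperone of guide particles, with 94.8 and 85.7 FPKM in shWDR43, against 65.8 and 68.5 FPKM in shNC (log2 difference 0.42, adjusted p = 0.0384). Both shWDR43 values were above both controls. Of 10 tested genes for box C/D particle assembly, 1 rose and 0 fell, set against the same shares. It was RUVBL1, an ATPase of the loading complex, with 45.9 and 42.2 FPKM in shWDR43, against 31.7 and 34.4 FPKM in shNC (log2 difference 0.40, adjusted p = 0.0403). The median difference was 0.002 over the first list and -0.03 over the second. Neither NOLC1 nor RUVBL1 passed with no filter (adjusted p = 0.132 and 0.140), under median-ratio or upper-quartile scaling (0.0695 to 0.0942), or without shWDR43 replicate 1 or 2 (0.0882 to 0.342). In those fits 0 genes of the first list passed.

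Some levels are uncertain because annotated neighbours share bases with a member, and whether the counting used strand is not known from the labels. Exons of 12 members overlap a protein-coding gene on the opposite strand. HEATR1 shares 2095 exonic bases with LGALS8, which fell (log2 change -0.38, adjusted p = 0.0492), and EMG1 shares 3100 with LPCAT3, at 14.0 and 15.8 FPKM in shWDR43 and 12.6 and 10.8 FPKM in shNC. UTP23 shares 518 bases with RAD21, which was at 129 to 138 FPKM in shWDR43 and 134 to 136 FPKM in shNC. KRR1 shares 1516 bases with GLIPR1, which stayed at or below 3.69 FPKM in all libraries. UTP14A has a near-identical copy, UTP14C, at 0.751 and 0.771 FPKM in shWDR43 and 0.200 and 1.47 FPKM in shNC. Named pseudogenes exist for 6 members, with KRR1P1 at 1.83 and 2.77 FPKM in shWDR43 and 3.600 and 1.69 FPKM in shNC. The 42 genes lie on 19 chromosomes, and no exon of RRP9, UTP18 or NAT10 overlaps another annotated gene.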

How the data were processed

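RNA-seq of 4 HCT116 libraries was used, 2 per group. The labels' protocols name Trizol for the RNA and an Illumina TruSeq kit for the libraries. The submitters' processing notes list GRCh38 and the tools HISAT2, RSEM, edgeR, Trimmomatic, FastQC and CASAVA 1.8, with no role or order. Neither an annotation nor a strand setting is stated. The deposited values are taken to be FPKM from their range and sums, and TPM of a subset of genes is possible. Low values showed no whole-read steps (the fullest 1% window of ratios between libraries held at most 1.05% of low genes), so no count test was run.

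Log2(FPKM + 1) was tested with limma 3.58.1 (R 4.3.3) in genes that reached 1 FPKM in 2 or more libraries. The group was the only term, with a mean-variance trend, robust settings and 2 residual degrees of freedom per gene. No scaling was added. The model was also run on simulated data with independent normal errors drawn from its own fitted variances. That run could not show how the model handles unequal spread between groups. Genes were named by module: all of UTP-A and of box C/D, members past the test or the 2 smallest p-values elsewhere, and the widest gaps between controls. The remaining members were added after their values were seen. The members and lists were chosen with earlier results of these data known. Motifs were searched in RefSeq windows of GRCh38.p14 (for IMP4, the first of its listed windows), and positions are from GENCODE release 29. Alternatives changed the offset, the filter, the scaling or the robust settings, set the replicate number as a block, or dropped a library. A block with crossed numbers and a fit of protein-coding genes were added after seeing the data. Python 3.11.15, pandas 2.3.3 and matplotlib 3.10.9 made tables and figures.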

Additional observations from a re-analysis of the deposited data

How the results depend on the processing

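RRP9 kept its direction in all fits, but counts of changed genes moved. Processome members that rose numbered 0 without the filter on low values, under median-ratio and upper-quartile scaling and with a replicate block, 2 with a filter at 5 FPKM, and 0 to 7 with a library left out. Members that fell numbered 1 with a filter at 5 FPKM and 0 to 4 with a library left out. All tested genes that changed numbered 833 (637 higher, 196 lower), but 17 without the filter, 452 under median-ratio scaling (311 higher, 141 lower), 371 under upper-quartile scaling (191 higher, 180 lower), and 391 to 2610 with a library left out. Other assembly genes that rose numbered 0 without the filter, under both scalings and with the replicate block, 2 with a filter at 5 FPKM or among protein-coding genes alone, and 0 to 4 with a library left out, and those that fell 0 to 5. The members' median log2 difference was 0.028 under upper-quartile scaling and 0.09 in the main fit. The median over all tested genes moved as well, to -0.013 from 0.046. With a library left out the median was 0.062 to 0.104 in the members and 0.038 to 0.057 over all tested genes. With the replicate block 563 genes changed, and the adjusted p of RRP9 was 0.0526. The difference of replicate 1 minus 2 had a weak negative correlation between groups (r = -0.147 across genes, which are not independent replicates). Such a value cannot show whether same-numbered libraries were handled as pairs. With crossed numbers as a block, chosen after seeing the data, 1954 genes changed, 7 members rose and 3 fell, and 3 other assembly genes rose and 1 fell. The cause of these shifts was not tested.

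A sign change in at least 1 fit was seen for 15 members. Under median-ratio scaling the log2 difference of BMS1 was -0.009 and of UTP6 -0.002, and under upper-quartile scaling BMS1 had -0.054, IMP4 -0.007, NOL11 -0.029, RRP36 -0.044 and UTP6 -0.046. With a library left out, AATF ran from -0.137 to 0.122, BMS1 from -0.016 to 0.044, DHX37 from -0.074 to 0.234, IMP4 from -0.079 to 0.198, NOC4L from -0.007 to 0.341, RRP36 from -0.003 to 0.049 and UTP15 from -0.237 to 0.001. Likewise UTP20 ran from -0.090 to 0.210, UTP23 from -0.001 to 0.199, UTP25 from -0.198 to 0.003, UTP3 from -0.173 to 0.053, UTP6 from -0.058 to 0.096, WDR36 from -0.045 to 0.450 and WDR75 from -0.079 to 0.058. With 2 libraries a group the intervals are wide, and how far read depth limits them is unknown.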
